A study of Mus musculus with 16 samples.

Results

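The mitochondrial respiratory chain carries electrons from NADH (complex I) and succinate (complex II) through complexes III and IV to oxygen, and complex V, the ATP synthase, uses the proton gradient built on the way to make ATP. Most subunits are encoded in the nucleus and imported, while a small set is encoded in mitochondrial DNA, so every complex except complex II joins the products of both genomes. Hepatocytes are packed with mitochondria and depend on this chain for gluconeogenesis, urea synthesis and fatty acid oxidation. CCl4 is a solvent that hepatocyte cytochrome P450 enzymes turn into a radical, and repeated dosing injures hepatocytes and scars the liver.

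The nuclear-encoded subunits were taken by symbol: the NADH dehydrogenase genes Nduf with a letter a, b, c, s or v and a number, Sdha to Sdhd, the Uqcr genes, the numbered Cox genes and the Atp5 genes. Of 36451 gene symbols on the array, 76 matched, with 103 probes on 112 spots. A probe entered the test when it was well above background on at least 3 arrays, and where a symbol had several such probes the brightest was used. This left 74 subunits among 24319 genes tested, with 36 in complex I, 4 in complex II, 6 in complex III, 13 in complex IV and 15 in complex V. The other 2 symbols, Cox7b2 and Cox8c, isoforms known from testis, were well above background on 0 arrays. The grouping follows the symbols, so Ndufa4, a protein now counted as a complex IV subunit, stands in complex I.

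Liver RNA was measured on 16 Agilent 1-colour arrays from male BALB/c mice, WT or Lcn2-/-. Lcn2 encodes lipocalin 2, a secreted protein that binds iron-carrying bacterial siderophores, and the question was how its loss changes a liver injured by repeated CCl4. The mice entered treatment at 6 to 8 weeks of age and were kept on regular chow. The WT CCl4 (5 arrays) and Lcn2-/- CCl4 (4 arrays) groups were injected intraperitoneally with CCl4 in corn oil at 0.5 ml/kg, 2 times a week for 4 weeks, and were killed 48 h after the final injection. Their controls, labelled WT control (4 arrays) and Lcn2-/- control (3 arrays), got corn oil alone over the same 4 weeks. The Lcn2 deletion is carried in every cell, was made in mice of 129/Ola X C57BL/6 origin and was then backcrossed to BALB/c, so segments linked to Lcn2 may differ from WT mice besides the gene itself. The labels number the arrays as replicates but do not say that each came from a separate mouse. If they did not, the p-values would measure technical spread. Values are log2 of the background-subtracted spot signal after quantile normalization over the 16 arrays, and a subunit is called changed at an adjusted p under 0.05 from limma after Benjamini-Hochberg over all genes tested.

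Between 51.6% and 60.9% of the spots on an array were well above background, and of the subunit spots 0 were saturated. Every Lcn2-/- array read lower than every WT array at the Lcn2 probe, with differences of -4.15 ± 0.76 (SE) in controls and -3.33 ± 0.67 under CCl4. Slide and treatment were almost the same split: slide 1 held the 7 control arrays and WT CCl4 array 1, and slide 2 held the other 8 CCl4 arrays. Lcn2-/- arrays lay in the second tier of their slides and WT arrays in the first, except WT CCl4 array 1, which lay in the second. Tier and genotype thus cannot be told apart in the control groups or among the CCl4 arrays of slide 2. In whole liver, fewer cells of a type and less RNA per cell cannot be told apart.

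Each value below rests on 60-base probes, and the 5′-most 30 bases are given for the probes of the subunits that passed the test in the WT response, with the probe that disagreed for Atp5c1. The positions are those of the array files on the mm9 build: Sdhd chr9:50404630-50404689, Ndufa12 chr10:93683562-93683621, Cox6a2 chr7:135349160-135349219, Cox8b chr7:148084852-148084911, and the Atp5c1 probes chr2:9977788-9980644 and chr2:9977665-9977724. The first Atp5c1 probe spans 2857 bases of the genome, so its 60 bases cross at least 1 splice junction, and the second lies in 1 uninterrupted stretch. Whether a stretch lies in coding sequence or UTR was not analysed here.
Sdhd: aggaggttgaggaaagctggatttagacaa
Ndufa12: aagaagattcatgaatgggttccacctttg
Cox6a2: agcaatcttcaaattggccttctgcacacc
Cox8b: ctataaaaagagctccgcagcatgaagttg
Atp5c1, junction probe: tcatctctgggactgctgctctggattaat
Atp5c1, second probe: ccactgagttacaaaggcagcaggatgttt

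After 4 weeks of CCl4 most nuclear subunits read close to their control levels in WT livers under quantile normalization. Of 74 subunits, 4 rose, 1 fell and the other 69 did not pass the test. The risers were Sdhd, a membrane anchor of succinate dehydrogenase, Atp5c1, the gamma subunit that forms the rotor shaft of ATP synthase, and Cox6a2 and Cox8b, the heart and skeletal muscle isoforms of complex IV subunits. Ndufa12, an accessory subunit of complex I, fell. The share called was 6.76% of the subunits against 16.7% of all genes tested, with 5.41% against 8.06% for higher and 1.35% against 8.64% for lower. In 72 of 74 subunits the WT difference was smaller than 0.5 log2 in size, and for 71 of 74 the 95% interval lay inside ±1 (a 2-fold change), against 65.7% of all genes. Under quantile normalization the subunits had less spread than most genes, with a median SD within groups of 0.119 against 0.299, so these intervals are narrow. Spread and intervals under other scalings are not given here. The median WT difference was 0.05 over the subunits and -0.03 over all genes. The subunit median fell to 0.01 without WT control array 3, 0.02 without WT CCl4 array 4 and 0.03 without WT CCl4 array 5.

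Livers without Lcn2 gave a similar picture. In Lcn2-/- mice 3 subunits rose, Sdhd, Cox6a2 and Ndufs1, the largest iron-sulfur subunit of complex I, and 0 fell by limma. At an unadjusted p under 0.05 the counts, in both directions, were 17 subunits in Lcn2-/- (23% against 27% of all genes) and 11 in WT (14.9% against 30.6%). The share called was 4.05% against 12.2% of all genes, all of it higher (6.58% of all genes), while the lower calls were 5.59% of all genes. The median Lcn2-/- difference was 0.05 over the subunits and -0.02 over all genes, and that of the subunits was 0.02 without Lcn2-/- control array 3 and 0.03 without Lcn2-/- CCl4 array 4. Of 74 subunits, 69 had the same sign in both genotypes, and the 2 sets of differences, which share no array, correlated across subunits (Pearson r 0.937, Spearman 0.886, n = 74, and 0.879 without Cox6a2 and Cox8b). Across all genes tested the same r was 0.816, and subunits on the same arrays are not independent of each other. Nor are the 2 sets of differences independent, as both follow almost the same slide split. Deviations from group means correlated across genotypes, at 0.23 to 0.55 for same-numbered controls and 0.14 to 0.64 for CCl4 arrays sharing a column.

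**Figure D1:**
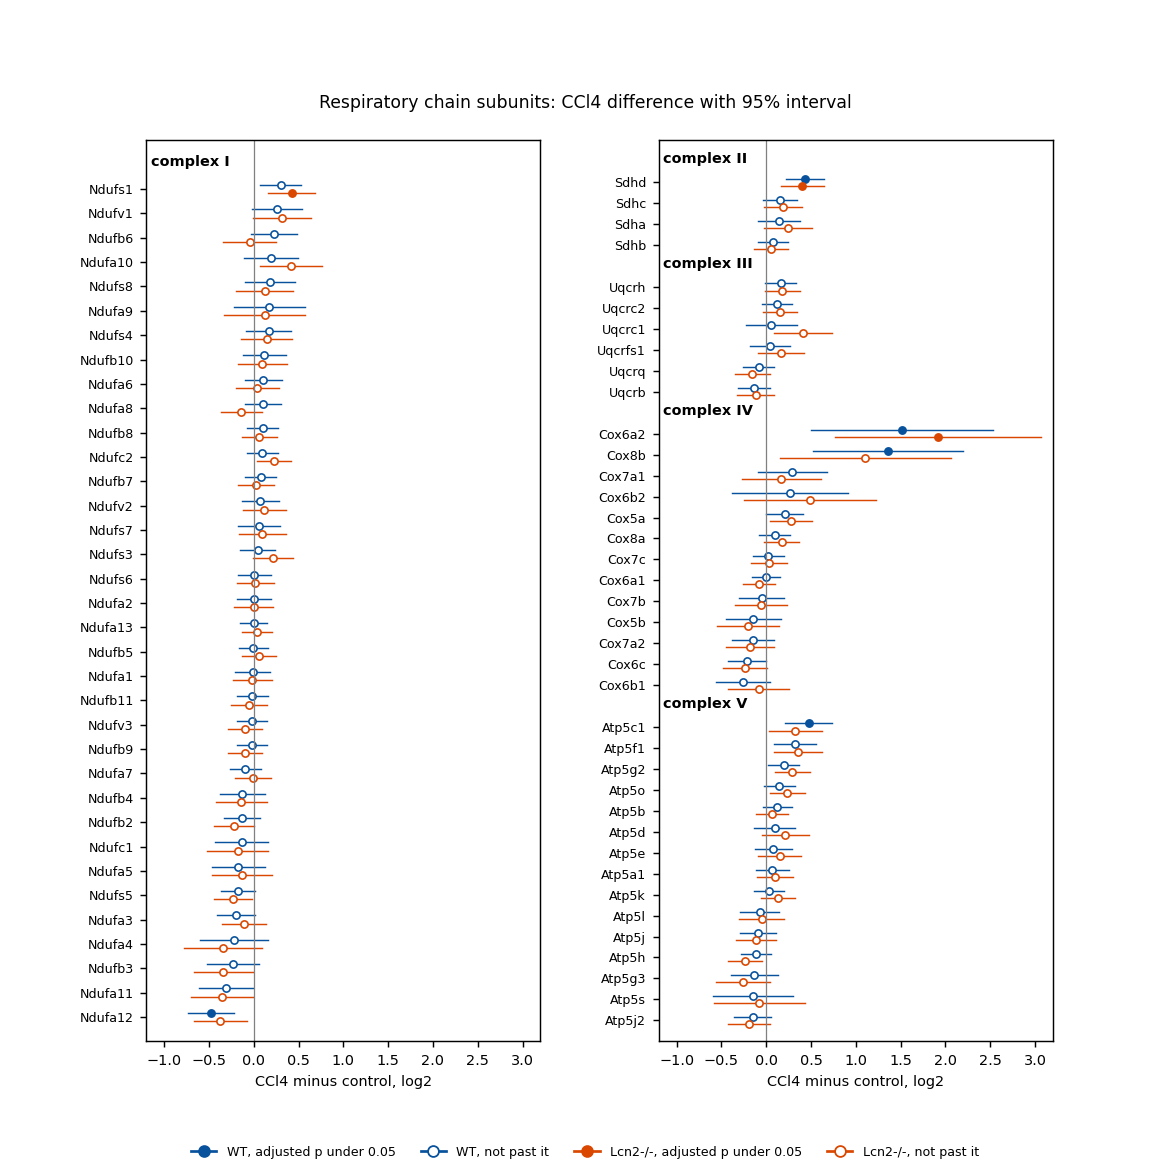
Difference between CCl4 and control (log2, x axis) for 73 of the 74 subunits tested, by complex, in WT (blue) and Lcn2-/- (orange) livers. Lines are 95% intervals from limma and filled points passed an adjusted p under 0.05. Most intervals cross 0, and Cox6a2 and Cox8b stand furthest to the right.

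How far the subunits moved depended on the scaling of the arrays. Scaling each array to its 75th percentile without the quantile step moved the median of all genes to -0.16 in WT and -0.14 in Lcn2-/-, and the subunits then read -0.26 and -0.19. Relative to all genes the median subunit was 0.08 higher in WT and 0.07 higher in Lcn2-/- under quantile normalization but 0.09 and 0.05 lower under this scaling. The WT calls turned from 4 higher and 1 lower to 2 higher (Cox6a2 and Cox8b) and 16 lower, 24.3% of the subunits against 21.1% of all genes, with 1579 of all genes higher and 3559 lower. In Lcn2-/- they became 1 higher and 4 lower, 6.76% of the subunits against 13.4% of all genes, with 1181 of all genes higher and 2072 lower. All 5 complex medians were then below 0 in WT, and in Lcn2-/- all but that of complex II (0.07). The calls of Cox6a2 in both genotypes and of Cox8b and Ndufa12 in WT were made under both scalings, while those of Sdhd, Atp5c1 and Ndufs1 were not, and their differences shrank. In WT those of Sdhd, Atp5c1 and Ndufs1 went from 0.43, 0.47 and 0.30 to 0.14, 0.15 and 0.09, and in Lcn2-/- those of Sdhd and Ndufs1 from 0.40 and 0.42 to 0.20 and 0.26 (limma adjusted p from 0.40 to 0.75). With no filter on dim probes, which raised the number of genes tested to 36383, Cox6a2 lost both calls by limma (WT adjusted p = 0.066, Lcn2-/- 0.0502).

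**Figure D2:**
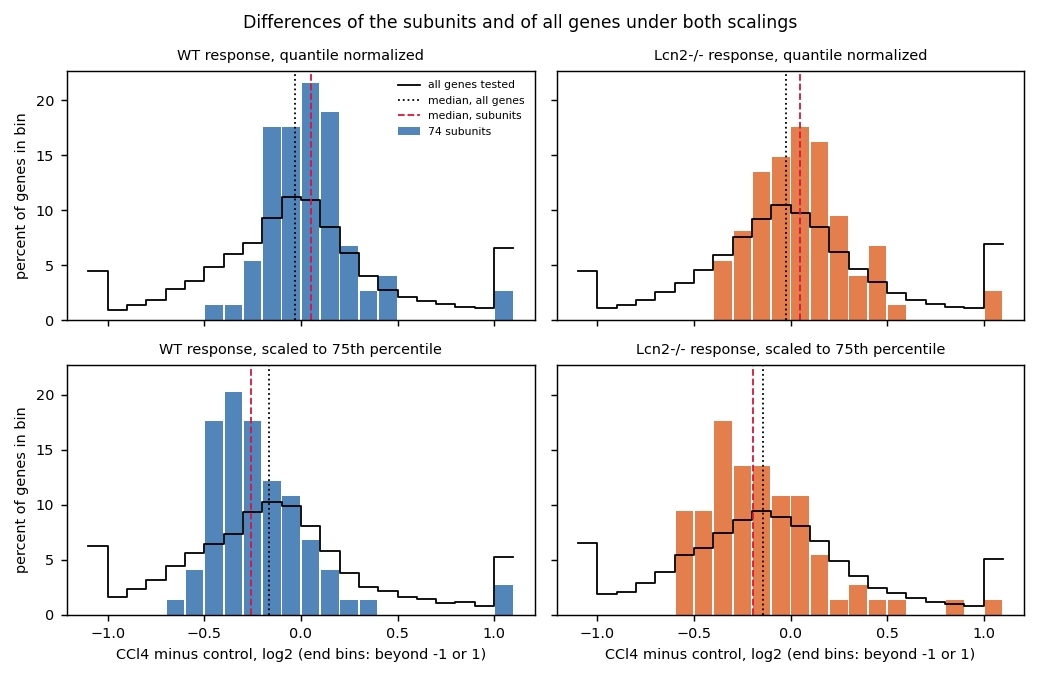
Percent of the 74 subunits (bars) and of all 24319 genes tested (black line) in bins of the CCl4 minus control difference (log2), for WT and Lcn2-/- under quantile normalization (top) and 75th percentile scaling (bottom). The dashed median of the subunits lies right of the dotted median of all genes at the top and left of it at the bottom.

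Slide was the other limit. With slide as a fixed block, which leaves WT CCl4 array 1 as the only link between slide and treatment, limma called 0 subunits in either genotype, against 5.33% of all genes in WT and 1.75% in Lcn2-/-. At an unadjusted p under 0.05 there were 7 subunits in WT (20.6% of all genes) and 2 in Lcn2-/- (15.9% of all genes). The WT differences in that fit are those of WT CCl4 array 1 alone, which also entered the calls, against the 4 control arrays of its slide (Ndufa12 -0.63, Sdhd 0.43, Cox6a2 0.95, Cox8b 1.08 and Atp5c1 0.63). Counting separation of arrays in place of calls, the arrays of WT CCl4 and WT control did not overlap for 9 subunits, 7 higher and 2 lower (12.2%, against 17.4% of all genes). In Lcn2-/-, with fewer arrays, 28 subunits did not overlap, 20 higher and 8 lower (37.8%, against 24.8% of all genes). In both genotypes and the same direction, 6 did so (8.11%, against 10.4% of all genes): Sdhd, Atp5c1, Atp5f1 and Atp5g2 were higher and Ndufa11 and Ndufa12 lower.

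Complex II, succinate dehydrogenase, is the 1 complex built from nuclear genes alone and is also an enzyme of the tricarboxylic acid cycle. All 4 of its genes read higher under CCl4 in both genotypes, with a median difference of 0.15 in WT and 0.22 in Lcn2-/- (-0.07 and 0.07 under 75th percentile scaling), but only Sdhd passed the test. On the log2 scale Sdhd measured 16.85, 16.81, 16.80 and 16.91 on the WT control arrays and 17.28, 17.11, 17.13, 17.38 and 17.48 on the WT CCl4 arrays. In Lcn2-/- it measured 16.83, 16.79 and 16.77 in controls and 17.25, 17.02, 17.18 and 17.34 under CCl4. Every CCl4 array of Sdhd lay above every control array, with a WT difference of 0.43 ± 0.10 (SE, limma adjusted p = 0.0076) and an Lcn2-/- difference of 0.40 ± 0.11 (adjusted p = 0.030). The WT call held without each of the 16 arrays in turn. The Lcn2-/- call was lost without Lcn2-/- control array 1, 2 or 3 or Lcn2-/- CCl4 array 1, 3 or 4 (adjusted p between 0.058 and 0.095).

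The other complex II genes did not pass. Sdha, the flavoprotein that oxidises succinate, had a WT difference of 0.14 ± 0.11 (limma adjusted p = 0.42) and an Lcn2-/- difference of 0.24 ± 0.13 (0.23). Sdhc, the second membrane anchor, differed by 0.15 ± 0.09 (adjusted p = 0.25) and 0.19 ± 0.10 (0.24), and a second Sdhc probe read 0.13 and 0.15. Sdhb, the iron-sulfur subunit, was the steadiest, with 0.07 ± 0.08 and 0.05 ± 0.09, and its 16 arrays ran from 17.43 to 17.67. Under 75th percentile scaling Sdha and Sdhc turned to -0.07 and -0.07 in WT, and Sdhb to -0.27, which did not pass (limma adjusted p = 0.20). Set against the other subunits on the same array, which takes out a shift common to the array, the median of complex II ran from -0.129 to -0.069 on WT control arrays and from -0.005 to 0.15 on WT CCl4 arrays. In Lcn2-/- it ran from -0.186 to -0.005 in controls and from -0.003 to 0.166 under CCl4. The groups did not overlap in either genotype, although in Lcn2-/- the nearest arrays all but met, nor did they overlap under 75th percentile scaling. This contrast was chosen after the values were seen.

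**Figure D3:**
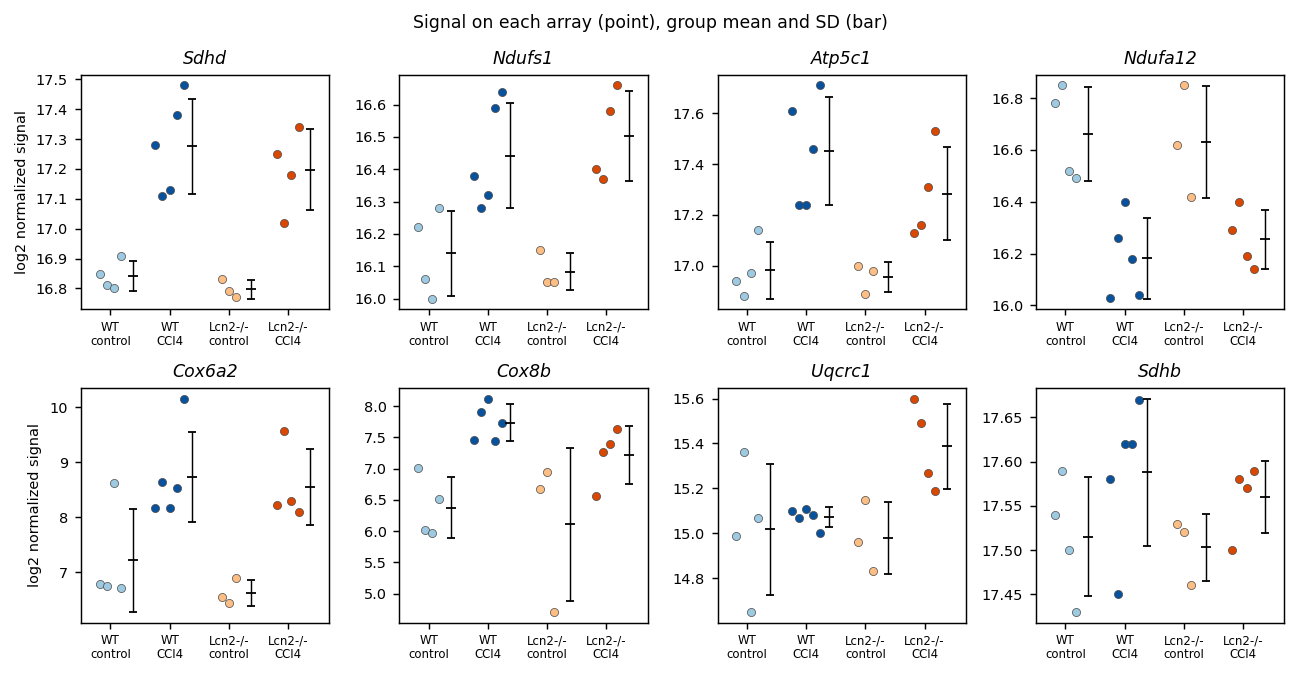
Signal on each array (log2 of the quantile-normalized signal, y axis, a separate scale for each gene) with group mean and SD for the 6 subunits called in either genotype, for Uqcrc1 and for the steady Sdhb. CCl4 points of Sdhd start at 17.02 and control points end at 16.91, while 1 WT control point of Cox6a2 sits among the CCl4 points.

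Complex I had a median WT difference of 0.00 over its 36 subunits under quantile normalization (0.01 in Lcn2-/-), with 18 subunits on each side of 0. Its WT median was -0.27 under 75th percentile scaling and -0.04 with slide as a block. Ndufa12, which sits where the peripheral arm meets the membrane arm, read 16.78, 16.85, 16.52 and 16.49 on WT control arrays and 16.03, 16.26, 16.40, 16.18 and 16.04 on WT CCl4 arrays. In Lcn2-/- it read 16.62, 16.85 and 16.42 in controls and 16.29, 16.40, 16.19 and 16.14 under CCl4. No CCl4 array reached its control group, and the difference passed the test in WT (-0.48 ± 0.12, limma adjusted p = 0.015) but not in Lcn2-/- (-0.37 ± 0.14, adjusted p = 0.097). The call in WT was lost without WT control array 1 or without WT control array 2 (adjusted p = 0.058 and 0.059). The Lcn2-/- difference passed with normexp background correction (limma adjusted p = 0.041), in the authors' value table (0.035) and with array weights (0.018), and the interaction was 0.11 ± 0.18. Under 75th percentile scaling the differences were -0.70 and -0.54.

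Ndufs1, which carries iron-sulfur clusters of the electron path, read 16.15, 16.05 and 16.05 on Lcn2-/- control arrays and 16.40, 16.37, 16.58 and 16.66 on Lcn2-/- CCl4 arrays. It rose by 0.42 ± 0.12 in Lcn2-/- (limma adjusted p = 0.036) with no overlap between groups. In WT the difference was 0.30 ± 0.11 (adjusted p = 0.069), the highest control array (16.28) and the lowest CCl4 array (16.28) meeting. The Lcn2-/- call was lost without Lcn2-/- control array 1, 2 or 3 or Lcn2-/- CCl4 array 3 or 4 (adjusted p between 0.077 and 0.12) and in the authors' value table (0.054). In WT Ndufs1 passed with normexp background correction (limma adjusted p = 0.043), in that table (0.041) and with array weights (0.036), and the interaction was 0.12 ± 0.16. The steadiest of complex I was Ndufa2, an accessory subunit, at -0.002 ± 0.09 in WT, or -0.29 under 75th percentile scaling.

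A pattern within complex I was seen after the values were known and is given as a description. The 7 nuclear core subunits, which include those that hold the flavin and the iron-sulfur clusters, had median differences of 0.18 in WT and 0.21 in Lcn2-/-, or -0.08 and 0.03 under 75th percentile scaling. Of the 29 accessory subunits, 18 in WT and 17 in Lcn2-/- were below 0, with medians of -0.01 and -0.04. Set against each other on the same array, the core minus accessory median averaged -0.13 ± 0.14 over the 4 WT control arrays (mean ± SD) and 0.09 ± 0.15 over the 5 WT CCl4 arrays. It averaged -0.12 ± 0.12 over the 3 Lcn2-/- control arrays and 0.15 ± 0.12 over the 4 Lcn2-/- CCl4 arrays. WT arrays overlapped and Lcn2-/- arrays did not. Scaled to the 75th percentile, these averages were -0.17, 0.12, -0.17 and 0.16.

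**Figure D4:**
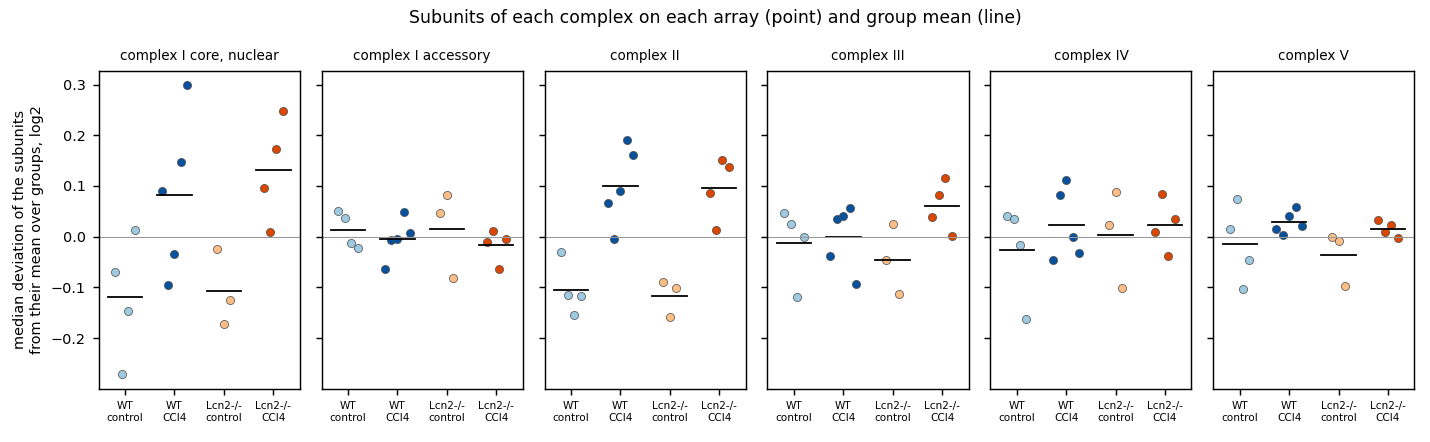
For each array (point), the median over the subunits of a complex of their deviation from their own mean over the 4 groups (log2, y axis), with group means as lines and complex I split into its 7 nuclear core and 29 accessory subunits. Control points of complex II lie between -0.16 and -0.03 and its CCl4 points between -0.004 and 0.19, while the accessory subunits stay between -0.08 and 0.08 on every array.

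Complex III, the cytochrome bc1 complex, had a median difference of 0.05 in WT and 0.16 in Lcn2-/- over 6 genes, of which 0 were called in either (limma). The WT median was -0.03 without WT control array 3, 0.02 and 0.03 without WT CCl4 array 3 or 4, and 0.08 without WT control array 1 or WT CCl4 array 5. Uqcrc1, a core protein of the matrix side, read 14.99, 15.36, 14.65 and 15.07 in WT control and 15.10, 15.07, 15.11, 15.08 and 15.00 in WT CCl4, a difference of 0.05 ± 0.13 that ran from -0.07 without WT control array 3 to 0.17 without WT control array 2. In Lcn2-/- it read 14.96, 15.15 and 14.83 in controls and 15.60, 15.49, 15.27 and 15.19 under CCl4, a difference of 0.41 ± 0.15 (limma adjusted p = 0.096), which passed with array weights (0.40 ± 0.11, limma adjusted p = 0.019). The 4 Lcn2-/- CCl4 arrays thus lay above all control arrays of their genotype, and above all 5 WT CCl4 arrays. Uqcrc2, the second core protein, is spotted 10 times on each array, and its spots varied with an SD of 0.025 within an array against 0.073 between arrays of a group. It differed by 0.12 in WT and 0.15 in Lcn2-/-, and Uqcrfs1, the Rieske iron-sulfur protein and the steadiest of complex III in WT, by 0.04 ± 0.11. Under 75th percentile scaling Uqcrc2 and Uqcrfs1 turned to -0.12 and -0.17 in WT, and Uqcrc1 to -0.09, while Uqcrc1 in Lcn2-/- was 0.32.

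Complex IV, cytochrome c oxidase, held the 2 subunits with the highest differences of all. Its 13 genes had a median of 0.02 in WT (0.0011 to 0.06 when 1 array was left out) and 0.03 in Lcn2-/- (-0.01 without Lcn2-/- control array 3). Cox6a2, the muscle and heart isoform of subunit 6a, read 6.79, 6.76, 8.63 and 6.71 on WT control arrays and 8.17, 8.65, 8.17, 8.53 and 10.16 on WT CCl4 arrays. In Lcn2-/- it read 6.55, 6.45 and 6.90 in controls and 8.23, 9.57, 8.29 and 8.10 under CCl4. Groups were separate in Lcn2-/-, while WT control array 3 fell among the CCl4 arrays. In WT the rise of Cox6a2 was 1.51 ± 0.47 (limma adjusted p = 0.041) and in Lcn2-/- it was 1.92 ± 0.54 (adjusted p = 0.032). Without WT control array 3 the WT difference was 1.98 (adjusted p = 0.0047). The WT call was lost without WT control array 1, 2 or 4, WT CCl4 array 2, 4 or 5 or, through the pooled spread, Lcn2-/- control array 1 or 2 or Lcn2-/- CCl4 array 3 (adjusted p between 0.051 and 0.13). The Lcn2-/- call was lost without Lcn2-/- control array 1 or 2 or Lcn2-/- CCl4 array 2 or 3 (adjusted p between 0.051 and 0.11).

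Cox8b, the muscle isoform of subunit 8, read 7.01, 6.02, 5.97 and 6.51 in WT control and 7.46, 7.91, 8.12, 7.44 and 7.73 in WT CCl4. It read 6.67, 6.95 and 4.71 in Lcn2-/- control, where it was well above background on 2 of 3 arrays, and 6.56, 7.26, 7.40 and 7.64 under CCl4. It rose in WT by 1.35 ± 0.39 (limma adjusted p = 0.029) with no overlap, and differed by 1.10 ± 0.44 in Lcn2-/- (adjusted p = 0.12), where groups overlapped. Without Lcn2-/- control array 3, the one not well above background, the Lcn2-/- difference was 0.41 (adjusted p = 0.45). The WT call was lost without WT control array 2, 3 or 4 or WT CCl4 array 2, 3 or 5 (adjusted p between 0.0502 and 0.091). The third muscle isoform, Cox7a1, differed by 0.29 ± 0.18 in WT (adjusted p = 0.30) and 0.17 ± 0.21 in Lcn2-/- (0.65). Its Lcn2-/- value was -0.01 without Lcn2-/- control array 3, 0.05 without Lcn2-/- CCl4 array 1, 0.34 without Lcn2-/- CCl4 array 3 and -0.12 with array weights.

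The liver counterparts of these isoforms did not pass the test under quantile normalization. Cox6a1, the steadiest of complex IV, differed by -0.002 ± 0.07 in WT with a 95% interval of -0.16 to 0.15, and by -0.08 ± 0.08 in Lcn2-/-. Cox7a2 differed by -0.15 ± 0.11 and -0.19 ± 0.12, and Cox8a by 0.09 ± 0.08 and 0.17 ± 0.09. Under 75th percentile scaling Cox6a1 read -0.52 in WT and -0.55 in Lcn2-/-, and both passed the test there, while Cox8a read -0.40 and -0.28 and did not. Markers of skeletal and heart muscle were read beside Cox6a2 and Cox8b. Of 12 on the array, 5 were tested, and Ckm, Myh1, Mb and Casq1 were well above background on 0 arrays. Of the 5, limma called 1 higher (Myl1) and 1 lower (Myh2) in WT and 2 higher (Myl1 and Tnni2) in Lcn2-/-, which is 40% in each against 16.7% and 12.2% of all genes, with medians of 0.45 and 0.55. The 75th percentile gave 1 higher and 2 lower in WT, and 1 higher in Lcn2-/-. The summed signal of the list ran from 897 to 1147 in WT control, 911 to 1293 in WT CCl4, 728 to 913 in Lcn2-/- control and 770 to 921 in Lcn2-/- CCl4, so groups overlapped. Myl1, a fast muscle myosin light chain, was well above background on 0 of 4 WT control arrays and 5 of 5 WT CCl4 arrays, and on 0 of 3 and 2 of 4 in Lcn2-/-. Myh2, a fast myosin heavy chain, went the other way, on 4 of 4 WT control and 0 of 5 WT CCl4 arrays. In WT each was thus detected in 1 group alone. A dim gene passes the detection filter more readily when 1 group is high, so the 40% cannot be weighed against all genes. Tnni2, a fast troponin, had a WT difference of 0.92 ± 0.37 (limma adjusted p = 0.11) and an Lcn2-/- difference of 1.43 ± 0.42 (0.042). Tnni2 was also at its control maximum on WT control array 3 (8.94, against 6.70 to 7.68 on the other WT controls), the array with high Cox6a2. Of 8 brown and white fat markers on the array 4 were tested, and Lep and the brown fat gene Ucp1 were well above background on 0 arrays. Limma called 1 of the 4 lower in WT (25%, against 16.7% of all genes) and 0 in Lcn2-/- (12.2% of all genes). The medians of the 4 were -0.15 in WT and 0.40 in Lcn2-/-. The part of these genes in the Cox6a2 and Cox8b differences was not tested.

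Complex V, ATP synthase, had a median of 0.07 in WT and 0.10 in Lcn2-/- over 15 genes. The WT median was 0.03 without WT control array 3 or WT CCl4 array 5 and 0.04 without WT CCl4 array 3. Atp5c1 read 16.94, 16.88, 16.97 and 17.14 in WT control and 17.61, 17.24, 17.24, 17.46 and 17.71 in WT CCl4. In Lcn2-/- it read 17.00, 16.89 and 16.98 in controls and 17.13, 17.16, 17.31 and 17.53 under CCl4. The groups did not overlap in either genotype, with a WT difference of 0.47 ± 0.12 (limma adjusted p = 0.015) and an Lcn2-/- difference of 0.33 ± 0.14 (adjusted p = 0.14). The WT call was lost without WT control array 1 or 2 (adjusted p = 0.050 and 0.054). That is the reading of the junction probe printed above. The second Atp5c1 probe went the other way, by -0.14 in WT and -0.18 in Lcn2-/-, with WT arrays that overlapped and Lcn2-/- arrays that did not. Averaging the probes ended the WT call (0.17 ± 0.08, limma adjusted p = 0.19).

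Other ATP synthase genes came close to the threshold. Atp5f1, subunit b of the stator, had a WT difference of 0.32 ± 0.11 (limma adjusted p = 0.062) and an Lcn2-/- difference of 0.35 ± 0.12 (0.079). Array weights called Atp5f1 in both genotypes. Atp5f1 passed in WT with normexp background correction (limma adjusted p = 0.038) and in the authors' value table (0.044), but read 0.10 in WT and 0.18 in Lcn2-/- under 75th percentile scaling (0.75 and 0.61). For Atp5g2, which encodes subunit c of the rotor ring, the differences were 0.20 ± 0.08 (0.12) and 0.29 ± 0.09 (0.053). The Lcn2-/- difference of Atp5g2 passed with normexp, with no filter on dim probes, among probes above background on all 16 arrays and with array weights, which also called it in WT. A second Atp5g2 probe that abuts the first read -0.06 and -0.07, and under 75th percentile scaling the first read -0.23 and -0.09. Atp5k, a small membrane subunit, was the steadiest at 0.03 ± 0.08 in WT, or -0.27 under 75th percentile scaling. Over all complexes 21 subunits had more than 1 probe tested. The 27 further probes lay a median of 0.10 from the probe used in WT and 0.16 in Lcn2-/-. In WT 21 of them lay within 0.2, the widest gap, 0.61, being that of Atp5c1.

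The question behind the design was whether loss of Lcn2 changes the liver, and among the subunits no gene passed in any comparison of genotypes. Under CCl4 the count called by limma was 0 of 74 (0.65% of all genes), in controls 0 of 74 (0.518%) and for the interaction, which sets the CCl4 effect in Lcn2-/- against that in WT, 0 of 74 (0.0535%). At an unadjusted p under 0.05 there was 1 subunit under CCl4 (1.35%, against 13.6% of all genes), 0 in controls (8.3% of all genes) and 0 for the interaction (3.31% of all genes). The 1 subunit was Uqcrc1, 0.32 ± 0.13 higher in Lcn2-/- CCl4 than in WT CCl4 (limma adjusted p = 0.33, unadjusted 0.033). Each of the 4 columns of slide 2 holds 1 array of either CCl4 group, Lcn2-/- in the second tier and WT in the first. In these columns Uqcrc1 was higher in Lcn2-/- by 0.53, 0.38, 0.19 and 0.19. With slide column as a block its difference was 0.32 ± 0.10 (limma adjusted p = 0.11). Over the 4 columns 9 subunits were higher and 10 lower in Lcn2-/- each time (25.7%, against 33.3% of all genes). The median genotype difference (Lcn2-/- minus WT) was -0.01 under CCl4 and -0.01 in controls, and the median size was 0.06 and 0.04. Under 75th percentile scaling the medians were 0.18 and 0.13, against 0.07 and 0.04 for all genes. There 62 and 65 of 74 subunits lay above the all-gene median, against 35 and 41 under quantile normalization.

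Under quantile normalization the intervals say how large a missed genotype difference could be. Under CCl4 the 95% interval lay inside ±0.5 for 66 subunits and inside ±1 for 72, and in controls for 67 and 71. For the interaction the counts were 55 and 70. With replicate number as a block, as numbers were taken to pair the control arrays, the counts in controls were 69 and 71. Limma called 0 there, with 0 at an unadjusted p under 0.05 (8.75% of all genes). That fit shares 1 effect per number over all 4 groups, though numbers were not taken to pair the CCl4 arrays. It is thus not a fit of the control pairs alone. With slide column as a block the counts under CCl4 were 69 and 72, with 0 called (1.32% of all genes) and 3 at an unadjusted p under 0.05, namely Uqcrc1, Cox6b1 and Ndufa11 (25.3% of all genes). In controls that fit called 0 (0.769% of all genes) and for the interaction 0 (0.0123%). At an unadjusted p under 0.05 there was 1 subunit in controls, Ndufa11 (15.1% of all genes), and 0 for the interaction (8.59% of all genes). Over the 3 numbered control pairs, 8 subunits were higher and 16 lower in Lcn2-/- each time (32.4%, against 43.6% of all genes). Ndufa11, an accessory subunit of complex I, was one of the higher, by 0.22, 0.23 and 0.15. Its difference in that fit over all groups was 0.16 ± 0.13 with replicate number as a block (limma adjusted p = 0.88). In the columns of slide 2 Ndufa11 was also higher in Lcn2-/-, by 0.31, 0.20, 0.18 and 0.09. With slide column as a block that difference under CCl4 was 0.19 ± 0.07 (limma adjusted p = 0.14). The widest were those of the dim muscle isoform Cox6a2, at -0.19 ± 0.47 under CCl4 (interval -1.197 to 0.83), -0.59 ± 0.54 in controls (-1.74 to 0.56) and 0.40 ± 0.72 for the interaction (-1.13 to 1.94). The Cox6a2 difference under CCl4 ran from -0.53 without Lcn2-/- CCl4 array 2 to 0.17 without WT CCl4 array 5. Without WT control array 3 its values in controls and for the interaction were -0.12 and -0.07, and without other single arrays the interaction ran up to 0.76. Under CCl4 the largest difference was that of Cox8b, -0.52 ± 0.39 (interval -1.36 to 0.32), which ran from -0.66 to -0.30 when 1 array was left out. The next in size were Cox6b2, the testis isoform of subunit 6b, at -0.29 ± 0.34 in controls (-0.08 without WT control array 3 and -0.46 without WT control array 4), and Uqcrc1 at 0.35 ± 0.20 for the interaction (interval -0.08 to 0.79).

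Genes that work with the nuclear subunits were read as lists, by counts and medians alone. The mitochondrially encoded subunits, 12 of 12 on the array tested, were below 0 in WT for 12 genes and in Lcn2-/- for 11, with medians of -0.34 and -0.25, and limma called 0 in either. The largest WT value was -0.70 for ATP8, a subunit of ATP synthase, and the smallest -0.04 for COX1, the catalytic subunit of complex IV. Under 75th percentile scaling their medians were -0.63 and -0.63, with 6 of 12 called lower in WT and 0 in Lcn2-/- (21.1% and 13.4% of all genes were called in either direction there), so their medians lay below those of the nuclear subunits under both scalings. Genes of the tricarboxylic acid cycle, the source of NADH and succinate, had medians of 0.21 in WT and 0.35 in Lcn2-/-. Of 18, 17 were above 0 in WT and 15 in Lcn2-/-. Limma called 3 higher in WT (16.7%, against 8.06% of all genes called higher) and 6 higher in Lcn2-/- (33.3%, against 6.58%). It called 0 lower in either (8.64% and 5.59% of all genes). Pdhb, of pyruvate dehydrogenase, read 0.44 ± 0.11 higher under CCl4 in WT (limma adjusted p = 0.011), while its Lcn2-/- difference was 0.15 ± 0.12 (0.45). Idh2, the mitochondrial NADP-dependent isocitrate dehydrogenase, read 0.36 ± 0.08 higher in WT (0.0075) and 0.68 ± 0.09 higher in Lcn2-/- (0.00034). Under 75th percentile scaling limma called 0 of these genes in WT and 1 in Lcn2-/-, and relative to all genes the list's median was 0.16 and 0.34.

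Of 17 other nuclear subunits and carriers tested, 1 rose and 1 fell in each genotype (11.8%, against 16.7% of all genes in WT and 12.2% in Lcn2-/-). Ndufab1, the acyl carrier protein that is also a complex I subunit, was 0.39 ± 0.12 higher in WT CCl4 (limma adjusted p = 0.040), and its Lcn2-/- value was 0.22 ± 0.14 (0.34). Cox4i2, the isoform of subunit 4 known for induction by low oxygen, fell by 0.59 ± 0.12 in WT (0.0042) and by 0.58 ± 0.14 in Lcn2-/- (0.014). Cox4i2 read 8.91, 8.85, 8.61 and 8.74 in WT control and 8.06, 8.35, 8.36, 8.18 and 8.01 in WT CCl4, with no overlap. Among 15 assembly factors of complexes IV and V, Tmem70, which assembles ATP synthase, went up in both genotypes, by 0.55 ± 0.09 in WT with a limma adjusted p of 0.00068 and 0.35 ± 0.10 in Lcn2-/- with 0.036, and the other 14 did not pass in either genotype. Of 9 complex I assembly factors 0 passed in either genotype, and of the 4 for complexes II and III 0 passed in WT and 1 fell in Lcn2-/-. Coenzyme Q synthesis had 0 of 12 called in either genotype, with medians of 0.12 and 0.26. Between genotypes, 1 of its 12 was called higher in Lcn2-/- under CCl4 and in controls (8.33%, against 0.65% and 0.518% of all genes). It was Coq4, whose product takes part in assembling the coenzyme Q synthesis complex. Coq4 read 11.52, 11.73, 11.39 and 11.50 in WT control, 12.41, 12.43 and 12.27 in Lcn2-/- control, 11.50, 11.49, 11.46, 11.61 and 12.10 in WT CCl4 and 12.80, 12.79, 12.61 and 13.14 in Lcn2-/- CCl4. All 7 Lcn2-/- arrays thus lay above all 9 WT arrays, with a difference of 1.202 ± 0.14 under CCl4 (limma adjusted p = 0.00068) and 0.84 ± 0.16 in controls (0.035). Its probe lies on chromosome 2 from 29652292 to 29652351 and that of Lcn2 on the same chromosome from 32240199 to 32240258 (mm9), and the part of that position in the difference was not tested.

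The remaining lists held calls in 2.7% to 11.1% of their genes in WT and in 0% to 9.09% in Lcn2-/-, against 16.7% and 12.2% of all genes. Of 74 mitochondrial ribosomal protein genes tested, 1 rose and 1 fell in WT (Mrpl43 by 0.37 and Mrps18c by -0.23), with medians of -0.002 and 0.02, and in Lcn2-/- 2 rose (Mrpl43 and Mrps6) and Mrps18c fell. Of 19 regulators of mitochondrial biogenesis, Esrra, the nuclear receptor that drives respiratory genes, was 0.38 higher after CCl4 in WT (limma adjusted p = 0.022), while Yy1, a zinc finger factor, fell by 0.36 (0.021) and was the 1 call of the list in Lcn2-/-, where it fell by 0.53. Of 22 import and inner membrane genes, 2 rose in WT: Slc25a4, the ADP/ATP carrier known from heart and muscle, by 0.63 (0.0013) and Timm50 by 0.46 (0.042), while in Lcn2-/- Slc25a4 rose by 0.50 and Phb2 by 0.47. Of 16 genes of mitophagy, dynamics and stress, Atf5 rose by 0.32 in WT (0.036) but read -0.15 under 75th percentile scaling. The one other genotype call among the mitochondrial lists was in this list, where Fgf21, a hormone released by stressed liver, read 11.66, 11.89, 10.17 and 10.69 in WT control and 8.48, 8.33 and 6.0 in Lcn2-/- control, a genotype difference of -3.50 ± 0.61 (0.015). Of 9 genes of superoxide and peroxide defence Prdx5 fell by 0.38 in WT (0.032) but read -0.03 ± 0.13 in Lcn2-/- (0.92). Leaving out each array in turn under quantile normalization, the WT calls of Cox4i2, Tmem70, Pdhb, Idh2 and Slc25a4 all held. Those of Esrra, Mrpl43, Yy1, Prdx5, Atf5, Ndufab1, Timm50 and Mrps18c were each lost without at least 1 array, with adjusted p up to 0.067, 0.072, 0.065, 0.11, 0.098, 0.13, 0.14 and 0.12 in that order. Among Lcn2-/- calls, those of Idh2 and Yy1 held, while Tmem70 was lost without Lcn2-/- control array 1 or 2 or Lcn2-/- CCl4 array 1 or 2 (adjusted p up to 0.14). Cox4i2 and Slc25a4 were lost without Lcn2-/- control array 1 or 2 (up to 0.069 and 0.085), Mrps18c without Lcn2-/- control array 2 (0.054) and Mrpl43 without any of 9 arrays (up to 0.13). The WT calls of Pdhb and Idh2 were lost under 75th percentile scaling. That scaling is not given here for Cox4i2, Tmem70 and Slc25a4, nor is the slide block for any gene of these lists.

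**Figure D5:**
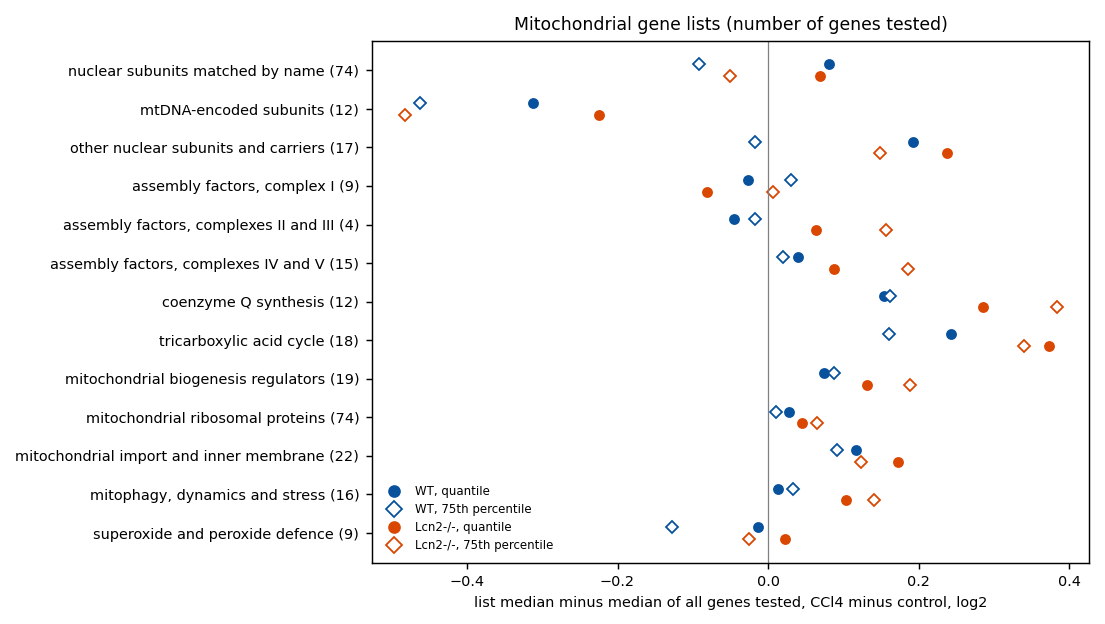
Median CCl4 minus control difference of each mitochondrial gene list minus the median of all genes tested (log2, x axis), for WT (blue) and Lcn2-/- (orange) under quantile normalization (filled circles) and 75th percentile scaling (open diamonds). All 4 points of the mitochondrially encoded subunits lie left of 0 and all 4 of the tricarboxylic acid cycle and coenzyme Q lists right of it, while the 74 nuclear subunits lie on opposite sides of 0 under the 2 scalings.

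Cell type markers were read beside these levels, where limma called 16.7% of all genes in WT and 12.2% in Lcn2-/-. Hepatocyte markers (Alb, Cps1, Hnf4a and others) had 0 of 10 called by limma in either genotype, with medians of 0.08 and -0.01. All 10 were above background in every group, with a summed signal between 2756820 and 3400030 on every array. Sums here are of signals that quantile normalization gave the same distribution on every array. They do not measure how many cells of a type there were. Stellate cell and myofibroblast markers rose, 8 of 10 in WT and 7 of 10 in Lcn2-/-, with medians of 1.39 and 1.54, and their summed signal went from 136788 to 226381 in WT control to 271925 to 581502 in WT CCl4. Summed cholangiocyte markers ran from 4340 to 21206 in WT control and from 18840 to 29328 in WT CCl4, and summed lymphocyte markers from 35662 to 60756 and from 14627 to 33568. In Lcn2-/- the cholangiocyte sums ran from 4872 to 7998 in controls and from 15021 to 32247 under CCl4. The Lcn2-/- lymphocyte sums ran from 44772 to 58156 and from 21316 to 34264. Limma called 1 of 6 cholangiocyte markers higher in each genotype. Of 7 lymphocyte markers it called 2 lower in WT and 1 lower in Lcn2-/-. Of 9 macrophage markers, 4 rose in each genotype (Gpnmb, Trem2, Lyz2 and Cd68) and the Kupffer cell lectin Clec4f fell in WT, with list medians of 0.66 and 0.18. Of 6 neutrophil markers, S100a8, S100a9 and Retnlg rose in WT and Retnlg in Lcn2-/-, with medians of 2.13 and 1.31. Of 4 erythroid markers tested, 4 were below 0 in WT, where Alas2 passed, and 3 were above 0 in Lcn2-/-, with medians of -0.83 and 0.09. Of 7 endothelial markers, 1 rose and 1 fell in WT and 1 rose in Lcn2-/-. Both control arrays numbered 3 stood high for the neutrophil marker S100a8, at 12.66 against 9.85 to 10.50 on the other WT controls and 13.16 against 9.33 and 9.70 on the other Lcn2-/- controls. The part of these changes in the subunit levels was not tested.

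Promoter letters are given for 4 of the subunits whose probes are printed above and for Sdha. Of 74 subunits, 73 were matched to a RefSeq gene and 62 had a promoter window (GRCm38.p6). The 250 bases before the start were searched on both strands for 4 motifs, each gene being counted once however many matches it held and whether or not they overlapped. A core of the NRF1 site, written GCGCANGCG, was found in 14 of 62 subunits (22.6%, against 5.86% of the 27025 genes with a window), with 6 of 31 in complex I, 2 of 3 in complex II, 0 of 3 in complex III, 1 of 11 in complex IV and 5 of 14 in complex V. Letters of an ETS-type site, written CCGGAAG, were found in 17.7% of the subunits (7.83% of all genes with a window). A YY1-type site, written AAGATGG, was found in 1.61% (5.18%). The TATA box, written TATAAA, was found in 8.06% (14.3%). The stretches of 30 bases around the matches of Sdhd, Sdha and Atp5c1, with the motif in capitals, are set beside the last 30 bases before the start of Ndufa12 and Cox8b, whose windows held none of the 4 motifs. The capitals of the second Sdhd stretch are the ETS-type letters on the opposite strand, and all other capitals are the NRF1 core. A match is a description of letters and does not show binding.
Sdhd, chr9:50603909-50603938, strand -: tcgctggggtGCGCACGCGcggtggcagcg
Sdhd, chr9:50603877-50603906, strand -: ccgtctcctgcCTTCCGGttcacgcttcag
Sdha, chr13:74350319-74350348, strand -: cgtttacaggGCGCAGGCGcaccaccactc
Sdha, chr13:74350276-74350305, strand -: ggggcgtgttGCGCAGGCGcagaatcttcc
Sdha, chr13:74350241-74350270, strand -: cgacacccgcgcgactcggtGCGCAAGCGc
Atp5c1, chr2:10080433-10080462, strand -: cgcctgagctcccGCGCACGCGcactgagt
Ndufa12, chr10:94199005-94199034, strand +: ttttacccgaacacggaaggggcggaccat
Cox8b, chr7:140900447-140900476, strand -: gtgacaggagacagctgcagctctccaccc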

How the data were processed

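The authors labelled liver RNA with Cy3, hybridised 1-colour arrays and ran Agilent Feature Extraction 10.7.3.1, and per the file headers each deposited scanner file gives spot intensity values on a linear scale, not normalized between arrays. A second deposited table holds log2 values for these arrays (r of 0.987 to 0.995 with the scanner values, column medians 6.53 to 6.55, so not centred on 0), and it served as an alternative. The submitters' processing notes name limma. Other versions are not given in the sources used here.

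The log2 processed signal of 59305 gene spots (control spots and spots marked by the image software left out) was quantile normalized. Spots of a probe were averaged to 55681 probes, 121 with no usable spot on some array were dropped, and of the 33014 that 3 or more arrays read well above background the brightest was taken per symbol. limma 3.58.1 in R 4.3.3 fitted 1 model over the 4 groups with 5 contrasts and 12 residual degrees of freedom, and was tested on simulated data first. Alternatives included normexp, which models background from the raw spot signal, and array weights, which give noisier arrays less influence. The precision is limited by the number of arrays. Symbols and probe positions (mm9) are those of the array files.

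Replicate numbers were checked by the correlation of same-numbered arrays' deviations from their group means. Between WT control and Lcn2-/- control these were 0.23, 0.37 and 0.55, so numbers were taken to pair the control arrays. In the other pairs of groups they ranged from -0.22 to 0.25 and were not taken as pairs. Correlations of arrays with different numbers or columns are not given here as a baseline. On slide 1 the paired control arrays share a slide column as well as a number, so number and column cannot be told apart there. On slide 2 a column holds 1 WT CCl4 and 1 Lcn2-/- CCl4 array with different numbers, so the check by number cannot see a pairing by column. Deviations of the 4 column pairs correlated at 0.16, 0.22, 0.14 and 0.64, all but the last below the 0.25 reached by number pairs set aside. Column within slide was run as a block between genotypes, an alternative added after the data were seen.

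The subunits and lists were chosen with earlier results of these data known. Named are up to 3 called subunits per complex, direction and response, all of complex II, the 2 with the largest size in a genotype contrast without calls, the muscle isoforms and counterparts, the steadiest of each complex, and up to 2 called genes per direction and list in WT. Other genes were named after their values were seen, and 1 subunit is not reported here on its own, though it enters the counts and medians.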

Additional observations from a re-analysis of the deposited data

Results flagged for a closer look

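Of 78 groups of 4 or 5 arrays examined, over the named subunits and the per-array medians of the complexes, 3 held an array that stood apart from the rest of its group, where chance gives about 1 in 20. All were Cox6a2, the muscle isoform of a complex IV subunit. WT control array 3 read 8.63 on the log2 scale against a group median of 6.77. WT CCl4 array 5 read 10.16 against a median of 8.53, and Lcn2-/- CCl4 array 2 read 9.57 against 8.26.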

How the results depend on the processing

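Differences of subunits depended most on scaling and slide. Scaled to the 75th percentile, 18 subunits were called in WT and 5 in Lcn2-/-. Their median difference was -0.26 in WT (complexes I to V: -0.27, -0.066, -0.20, -0.34, -0.27) and -0.19 in Lcn2-/- (-0.24, 0.067, -0.078, -0.18, -0.13), and the genotype medians were 0.18 under CCl4, 0.13 in controls and 0.056 for the interaction. Signs turned there for Sdha (-0.067), Sdhc (-0.065), Cox8a (-0.40) and Atf5 (-0.15) in WT, for Cox8a (-0.28), Atp5k (-0.11) and Atf5 (-0.025) in Lcn2-/-, and for Atp5c1 (0.048), Cox6a1 (0.19) and Pdhb (0.026) between genotypes under CCl4.

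With slide as a fixed block 0 subunits were called in WT (median -0.022, complex I -0.044, complex V 0.0061, Sdhc -0.0020, Cox8a -0.029) and 0 in Lcn2-/- (median 0.0045, complexes I to III -0.089, 0.14 and 0.054, Sdhc -0.0057). Slide 1 alone, where WT CCl4 is 1 array, gives the same WT values by construction. Array weights called 11 in WT (14.9%, against 28.8% of all genes) and 13 in Lcn2-/- (17.6%, against 28.7%, median 0.0082, complex IV -0.078). Normexp background called 7 in WT (9.46%, against 16.9%) and 5 in Lcn2-/- (6.76%, against 11.9%), the authors' value table called 7 (9.46%, against 16.8%) and 3 (4.05%, against 12.0%), and averaging probes moved complex IV to -0.059 and Pdhb to -0.0011 in Lcn2-/-. The replicate block, in which WT CCl4 array 5 has no partner, called 3 in WT (Atp5c1, Ndufa12 and Sdhd, 4.05% against 15.5% of all genes) and 3 in Lcn2-/- (4.05% against 12.2%), and no call between genotypes changed. Leaving out both control arrays 3 moved complex III in WT to -0.034 and complex I in Lcn2-/- to -0.051. It called 1 in Lcn2-/- (1.35%, against 15.1% of all genes). The slide column as a block, chosen after seeing the data and run between genotypes alone, called 0 subunits in all 3 contrasts.

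Without each array in turn, WT calls ranged from 1 (1.35%, against 10.5% of all genes, without WT control array 2) to 6 (8.11%, against 16.7% and 18.5%, without Lcn2-/- CCl4 array 2 or 4). Lcn2-/- calls ranged from 0 (against 6.93%, 6.92% and 9.53% of all genes, without Lcn2-/- control array 1 or 2 or Lcn2-/- CCl4 array 3) to 4 (5.41%, against 11.9%, without WT CCl4 array 1). The median difference of the subunits ranged from 0.015 to 0.070 in WT and from 0.024 to 0.062 in Lcn2-/-. The complex III median in WT ranged from -0.034 to 0.078, that of complex I in Lcn2-/- from -0.051 to 0.043, the genotype median in controls from -0.028 to 0.033 and that of the interaction from -0.044 to 0.031. The causes of these shifts were not tested. Of the other values, which are those of single genes and the medians of all genes, 4000 were unchanged, 202 lost a call, 17 gained one and 16 reversed direction. The remaining 248 were small gene differences that changed sign, or medians of all genes that shifted by at least the SD of the subunit median between arrays. Unchanged means the same direction and side of the threshold for a gene, and a shift below that SD for a median. Signal over background limits Cox8b alone among the subunits tested, since it was above background on 15 of 16 arrays.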
